A study of Caenorhabditis elegans with 2 samples.

Results

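KLE-2 peaks on the X chromosome of Caenorhabditis elegans were taken as every peak that the deposited list places on X, 435 of the 6218 peaks of the list. The list came from chromatin immunoprecipitation and sequencing (ChIP-seq) with a rabbit antibody to KLE-2 on ground whole adults of the strain fem-2(b245), genotype fem-2(b245)III, labelled as hermaphrodite young adults with a germline and grown at 20 °C. The growth protocol describes the harvested animals as gravid, whereas the stage label says young adult. The series consisted of 1 ChIP library, which gave the peaks, and 1 input library of the same strain, whose values are not analysed here. All animals carried the fem-2 mutation, no strain without it was analysed here, and whole animals mix chromatin of germline and soma.

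KLE-2, a kleisin, is a part of condensin II, a ring-shaped complex that closes around DNA together with a pair of SMC proteins and helps to fold and separate chromosomes. Condensin I shares part of its subunits, and another complex, condensin IDC, is built with the X-specific SMC protein DPY-27 and lowers X expression in hermaphrodites as part of the dosage compensation machinery. Worm chromosomes are holocentric, so condensin II is not gathered at a single centromere. X has its meiotic pairing center near the left end, where the zinc-finger protein HIM-8 binds, and X is largely silent in much of the germline. FEM-2 is a phosphatase of the sex determination pathway that male development and sperm formation require, and b245 is a temperature-sensitive allele.

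A peak is given by where it starts and ends on WormBase WS220 and by a score, all as the authors deposited them. The scale of this score, the authors' own, is not named, with a lowest value of 50.08 in the list and a ceiling at 3100, a value that 171 peaks share exactly. Some peaks of the list scored above this ceiling, up to 3219.64 on chromosome II. There is 1 peak list and no replicate, so nothing below was tested. The 95% intervals (exact Poisson for densities, exact Clopper-Pearson for shares, order statistics for medians) cover counting error only and treat peaks as independent, although many lie close together. X was measured from base 1 to the end of its last peak, 17.712 Mb, and its left end, right end and center are parts of 5.904 Mb each. Read depth is unknown, since the list holds no read counts.

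X carried 24.6 peaks per Mb (95% interval 22.3 to 26.98), the lowest density of the 6 chromosomes, against 49.5 per Mb on chromosome V, the sparsest autosome. What the X peaks lacked most was the middle of the width range. Peaks of 700 to 999 bp were scarce on X: there were 19 of them, 4.37% of X peaks (2.65 to 6.74%), against 904 on the autosomes, 15.6% of autosomal peaks (14.7 to 16.6%). Over the whole list 14.8% of peaks had such a width. The 5 autosomes were close to each other in this share, from 15.2% on chromosome II to 16.1% on chromosome I, and the interval of X did not reach any of theirs.

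The density of X peaks relative to the autosomes therefore fell and then rose again with peak width. Peaks under 400 bp stood at 6.78 per Mb on X and 12.7 per Mb on the autosomes, a ratio of 0.533 (0.437 to 0.644). Peaks of 400 to 499 bp gave a ratio of 0.425 (0.350 to 0.514), and peaks of 500 to 699 bp gave 0.271 (0.222 to 0.328). The lowest ratio was at 700 to 999 bp, where X held 1.07 peaks per Mb and the autosomes 10.96 per Mb, a ratio of 0.0979 (0.0587 to 0.154). From there the ratio was higher again, 0.284 (0.174 to 0.442) at 1000 to 1499 bp and 0.627 (0.331 to 1.10) at 1500 to 1999 bp. The width classes were drawn after the data had been seen. In finer classes the step came between 500 to 549 bp, with a ratio of 0.468, and 550 to 599 bp, with a ratio of 0.207, and the lowest class was 800 to 899 bp, with 3 peaks on X and 277 on the autosomes.

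Wide peaks were about as dense on X as on the autosomes. X held 30 peaks of 2 kb or more, 1.69 per Mb (1.14 to 2.42), against 154 on the autosomes, 1.87 per Mb (1.58 to 2.19), a ratio of 0.907 (0.592 to 1.35). Single autosomes ran from 1.59 wide peaks per Mb on chromosome I to 2.23 per Mb on chromosome IV, so X lay within their range. By contrast, X held 13.49 peaks per Mb under 500 bp, against 20.9 per Mb on chromosome V, the lowest autosome. Wide peaks made up 6.90% of X peaks (4.70 to 9.70%) and 2.66% of autosomal peaks (2.26 to 3.11%), beside 2.96% over the whole list. Chromosome IV had 3.46% (2.47 to 4.71%) and chromosome V 3.48% (2.45 to 4.79%), with intervals that just meet that of X. With 1500 bp as the limit, the shares were 44 of 435 on X, 10.1% (7.45 to 13.3%), and 4.46% on the autosomes, beside 4.86% of the whole list. Peaks of 2 kb or more held 30.3% of the bases that peaks covered on X and 13.2% of those on the autosomes. By median, however, X peaks were narrower and lower in score than those of any autosome. Their median width was 481 bp (462 to 499 bp), against 535 to 557 bp on single autosomes. Their median score was 167.79 (144.83 to 193.28), against 222.845 to 245.255 on single autosomes. When neighbours up to 500 bp apart were joined before counting, the ratio of wide regions dropped to 0.589 (0.395 to 0.853), while that of the 700 to 999 bp class was 0.0972. Other settings also gave lower ratios of wide peaks, with intervals that include parity. The ratio was 0.794 (0.563 to 1.10) for 1500 bp or more and 0.771 (0.479 to 1.19) for scores above the list median. Without the wide peaks between 4042332 and 4056295 it was 0.786 (0.498 to 1.20). The near parity of wide peaks thus depends on the setting, most of all on how neighbouring peaks are joined. The scarcity at middle widths did not move with this joining.

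**Figure D1:**
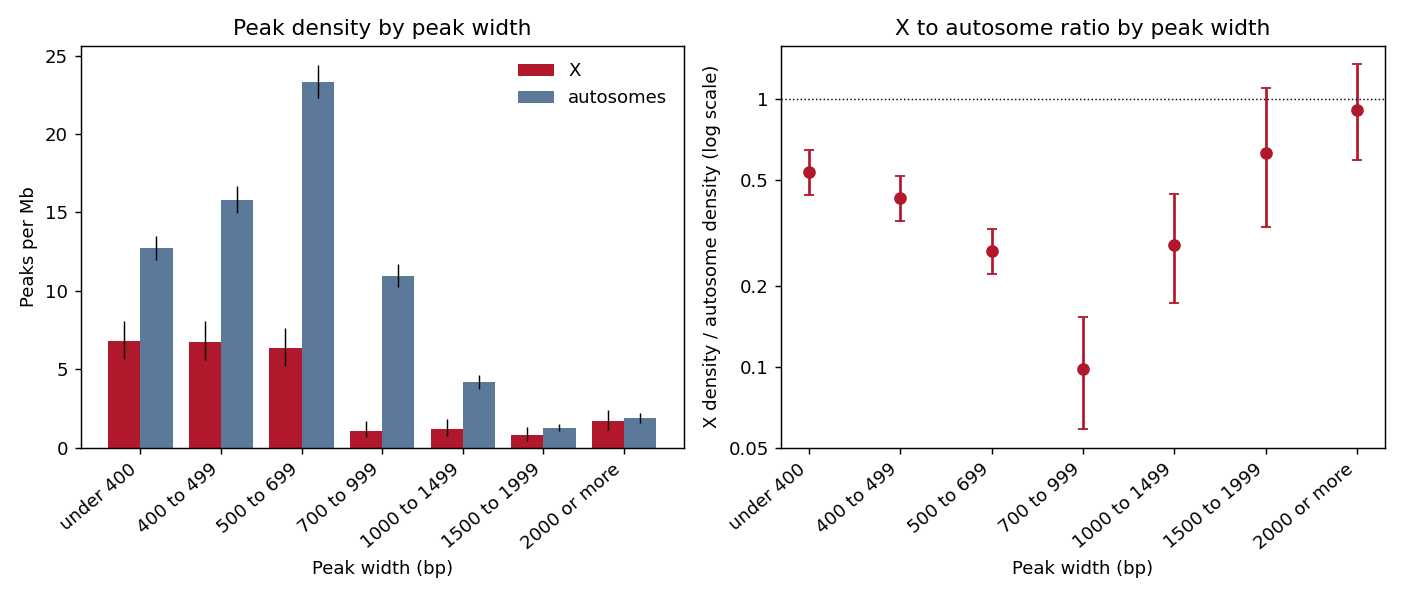
Left, peaks per Mb (vertical axis) in 7 classes of peak width in bp (horizontal axis), X in red and the pooled autosomes in blue; right, the ratio of X to autosome density on a log axis, with 1 dotted. Lines are exact 95% intervals of counting error, and the ratio is lowest, 0.0979, at 700 to 999 bp and 0.907 at 2 kb or more.

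The 19 X peaks of 700 to 999 bp lay all along the chromosome, with 7 in the left end, 8 in the right end and 4 in the center. Their scores ran from 88.82 at 9438448 to 9439291 to 2048.13 at 16503821 to 16504790, with a median of 581.4, against a median of 674.125 for the autosomal peaks of the same widths. Of the 19, 8 had another peak within 2 kb, 42.1% (20.3 to 66.5%), against 20.9% of all X peaks (17.2 to 25.05%) and 44.5% of the whole list, and the interval of the 19 overlaps that of all X peaks.

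Scores followed a similar course, which is no separate result since score and width rose together across X peaks (Spearman's rho 0.847 over 435 peaks of 1 list). Scores of 50 to 100 were found at 7.23 peaks per Mb on X and 16.2 per Mb on the autosomes, a ratio of 0.446 (0.369 to 0.535). The ratio was lowest for scores from 1600 up to the ceiling, with 8 peaks on X and 337 on the autosomes, 0.111 (0.0474 to 0.220). At the ceiling, 22 X peaks and 159 autosomal peaks gave 0.645 (0.393 to 1.01). The ceiling held 5.06% of X peaks (3.20 to 7.56%), beside 2.91% of the whole list. Chromosome IV had 4.17% (3.08 to 5.51%), chromosome V 3.48% (2.45 to 4.79%) and chromosome II 2.90% (1.97 to 4.12%), with intervals that overlap that of X. The step at the ceiling was visible peak by peak: below the 22 ceiling peaks came scores of 2811.49 (1503773 to 1504950), 2443.99 (15634885 to 15636388) and 2048.13 (16503821 to 16504790).

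Along the chromosome, the left tip was by far the fullest stretch. Among the 35 full bins of 500 kb, which held 12.3 ± 6.78 peaks (SD over bins, not over samples) with a median of 11, the first bin held 35 peaks (24.4 to 48.7). They covered 31.4 kb, and 5 of them were at the ceiling. Next came 24 peaks between 4 and 4.5 Mb, 20 between 14.5 and 15 Mb, 20 between 16.5 and 17 Mb, and 19 between 0.5 and 1 Mb. The emptiest bins lay left of the midpoint of X, with 2 peaks between 6 and 6.5 Mb, 4 each in the bins that start at 3.5, 6.5 and 8 Mb, and 5 between 2.5 and 3 Mb. Bins nearer to an end held more peaks (rho -0.62 with distance to the nearer end over 35 bins, which are neighbours on 1 chromosome). The score of a peak hardly followed that distance (rho -0.0916 over 435 peaks).

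**Figure D2:**
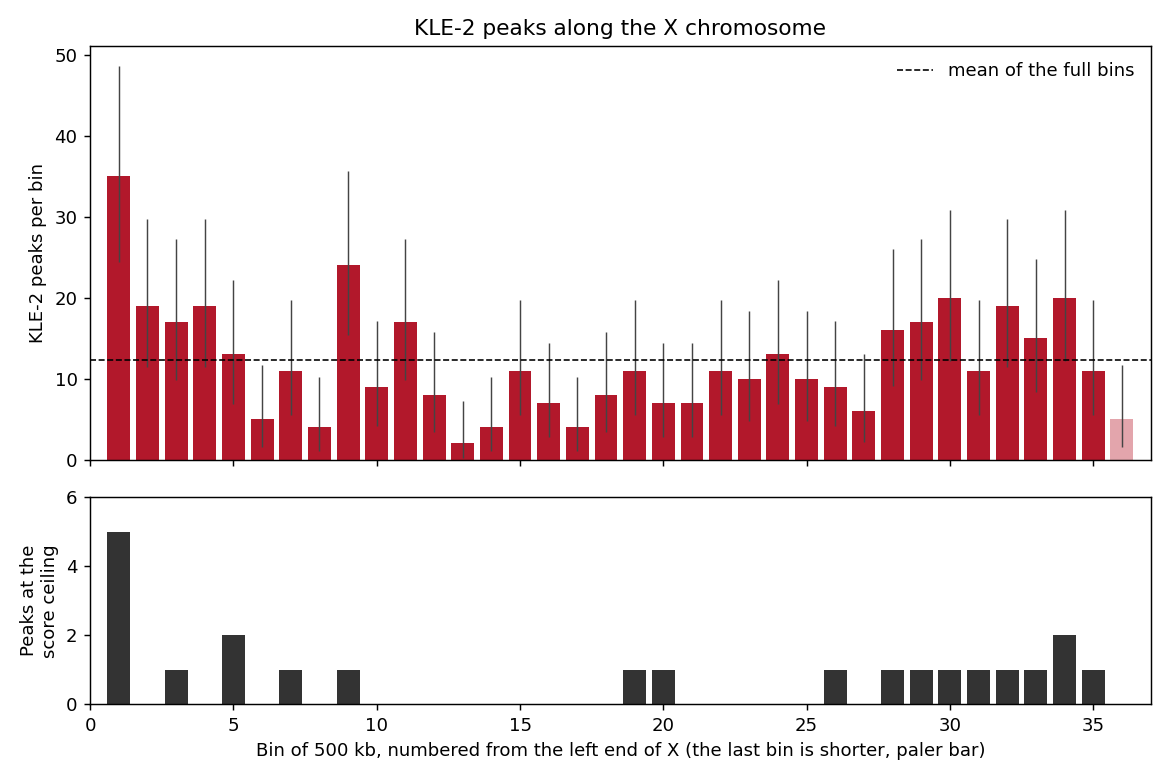
Top, KLE-2 peaks per bin of 500 kb (vertical axis) in bins numbered from the left end of X (horizontal axis), with exact Poisson 95% intervals and the mean of the full bins dashed; bottom, the number of those peaks at the score ceiling. The first bin holds 35 peaks and 5 ceiling peaks, and bins 13 and 14 hold 2 and 4 peaks.

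Within the left tip, the 100 kb between 0.1 and 0.2 Mb held 15 peaks, more than any other bin of that size on X, and 3 of the 22 ceiling peaks. No other bin of 100 kb on X held more than 9. The stretch opened with a ceiling peak 5322 bp wide (109087 to 114408) and went on to one of 1132 bp (142693 to 143824). A run of 4 close peaks followed, of which the last 2 scored 1842.44 (168465 to 169034) and 1958.18 (169058 to 170069). A run of 3 followed at 180421 to 182873, and the third ceiling peak stood at 188240 to 190216. The first peak of X started at base 1 and ended at base 439 with a score of 814.28, and the last peak (17711712 to 17712015) scored 70.38.

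The left and right ends of X held similar numbers of peaks over their whole length, but the peaks were placed differently within them. The counts that follow are cumulative from each end, so each larger stretch includes the tip. The outermost 0.5 Mb held 35 peaks on the left and 12 on the right, so 74.5% of these were on the left (59.7 to 86.1%). Over the outer 1 Mb the counts were 54 on the left and 29 on the right, and over the outer 2 Mb they were 90 and 60, a left share of 60.0% (51.7 to 67.9%). Further in, the right end gained more peaks than the left, and the counts were 108 on the left and 97 on the right over the outer 3 Mb. At 4 Mb the ends were level, with 123 peaks on the left and 124 on the right. The excess at the left tip was thus offset by more peaks on the right between 2 and 4 Mb from the end. Over the full ends of 5.904 Mb, the left end held 178 peaks, 30.1 per Mb (25.9 to 34.9), the right end 165, 27.9 per Mb (23.8 to 32.6), and the center 92, 15.6 per Mb (12.6 to 19.1). The left share of the end peaks was then 51.9% (46.5 to 57.3%), an interval that includes an even split. Without the outermost 500 kb at each end it was 48.3%.

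The tip on the left was also dense relative to its own chromosome. It held 2.85 times the mean density of X (1.99 to 3.96), and the right tip 0.977 times (0.505 to 1.71). The 10 tips of the autosomes held from 0.808 to 1.37 times their chromosome's mean, with a median of 1.00, and the interval of the left tip of X lay above all of these values. This tip is the bin named above as the fullest, and its length was chosen after the data had been seen, so the interval is no test. With tips of 1 Mb the left ratio of X was 2.20 (1.65 to 2.87), against at most 1.31 on the autosomes. Among the autosomal tips of 0.5 Mb, the left one of chromosome I was the highest, with 60 peaks and an interval of 1.05 to 1.76. In peaks per Mb, the left 0.5 Mb of X reached 70.0 (48.8 to 97.4), a level of autosomal size. How this stretch lies to the sequences bound by HIM-8 was not analysed here.

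**Figure D3:**
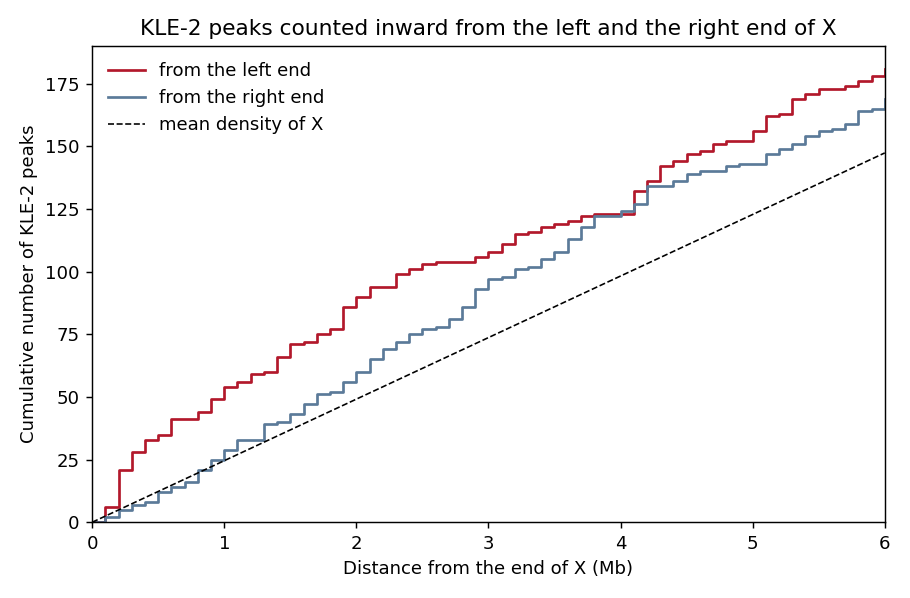
Cumulative number of KLE-2 peaks (vertical axis) against distance inward from the end of X in Mb (horizontal axis), from the left end in red and the right end in blue, with the mean density of X dashed. The left curve is ahead at 0.5 Mb, with 35 against 12 peaks, and the curves meet near 4 Mb, with 123 and 124.

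Score and width differed little between the ends. The median score was 168.245 in the left end (134.68 to 201.28), 184.15 in the right end (140.59 to 233.22) and 143.305 in the center (115.65 to 209.08), with overlapping intervals. Median widths were 486 bp in the left end, 480 bp in the right end and 459 bp in the center. Peaks covered 2.46% of the left end, 1.98% of the right end and 1.00% of the center.

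The 22 ceiling peaks of X were 10 in the left end, 10 in the right end and 2 in the center, but they were laid out differently at each end. On the left, 5 stood in the first 0.5 Mb, from 28.284 to 147.221 kb apart, and the other 5 were spread out to 4222323 to 4223350. No ceiling peak followed for 4783.7 kb, up to the one at 9007054 to 9009217. On the right they came at wider steps: each of the 8 bins of 500 kb from 13.5 to 17.5 Mb held at least 1, and these 9 peaks were from 76.999 to 757.021 kb apart. The median distance between neighbouring ceiling peaks over all of X was 564.318 kb.

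Scores pile up at 3100, so the order of the ceiling peaks is not read here as one of strength. Named by score, the first X peak was at 442647 to 444081 with 3100.8, the single one on X above the ceiling value. The next, tied at 3100, were the widest: 6322 bp at 2057653 to 2063974, 5681 bp at 289745 to 295425 and the 5322-bp peak of the left tip. On the right the widest ceiling peaks measured 4726 bp (16929362 to 16934087), 4345 bp (15806961 to 15811305) and 2952 bp (13794669 to 13797620). Further ceiling peaks lay at 3074342 to 3077766, 1374746 to 1377271 and 2002606 to 2004140 in the left end. In the center the pair was at 9605155 to 9607938 and 9007054 to 9009217. The remaining ones among the first 20 lay in the right end, at 15481887 to 15484143, 17309775 to 17311897, 16100122 to 16101904, 14723343 to 14724865, 12520738 to 12522215, 16850933 to 16852362 and 14361939 to 14363324, apart from the third ceiling peak of the left tip.

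Of the 22 ceiling peaks of X, 15 had no other peak within 10 kb, 68.2% (45.1 to 86.1%), against 202 of the 413 X peaks below the ceiling, 48.9% (44.0 to 53.8%), and these intervals overlap. Another peak lay within 2 kb of 3 ceiling peaks, 13.6% (2.91 to 34.9%), against 21.3% of those below the ceiling (17.5 to 25.6%). The one at 9605155 to 9607938 was flanked by 139079 bp and 166253 bp without a peak. These 22 peaks had a median width of 2143.5 bp (1028 to 6322 bp) and held 18.5% of the bases that peaks covered on X. The fourth in width on X was no ceiling peak: it measured 5274 bp (14384588 to 14389861) and scored 925.05.

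Close neighbours were uncommon on X. An edge-to-edge gap of at most 2 kb joined 91 of the 435 peaks to another, 20.9% (17.2 to 25.05%), against 46.3% of autosomal peaks (45.0 to 47.6%) and 44.5% of the whole list. The lowest autosome was chromosome V with 40.7% (37.7 to 43.8%). A fixed distance counts fewer neighbours where peaks are sparse, so gaps were also set against each chromosome's mean gap, 40071.6 bp on X. On that scale X was close to the autosomes, though not within their range at every length. Gaps shorter than 5% of the mean were 12.4% of gaps on X and from 12.1% to 15.9% on the autosomes. Gaps longer than 0.01 times the mean were 93.3% on X and from 94.7% to 96.8% on the autosomes, so very short gaps were slightly more common on X. Those longer than 0.2 times the mean were 71.4% on X and from 65.1% to 69.7% on the autosomes. The median gap was 0.586 times the mean on X and from 0.419 to 0.526 times on the autosomes, and the coefficient of variation of gaps was 1.27 on X and from 1.32 to 1.44 on the autosomes. On both of these measures X was slightly the most even of the 6 chromosomes.

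**Figure D4:**
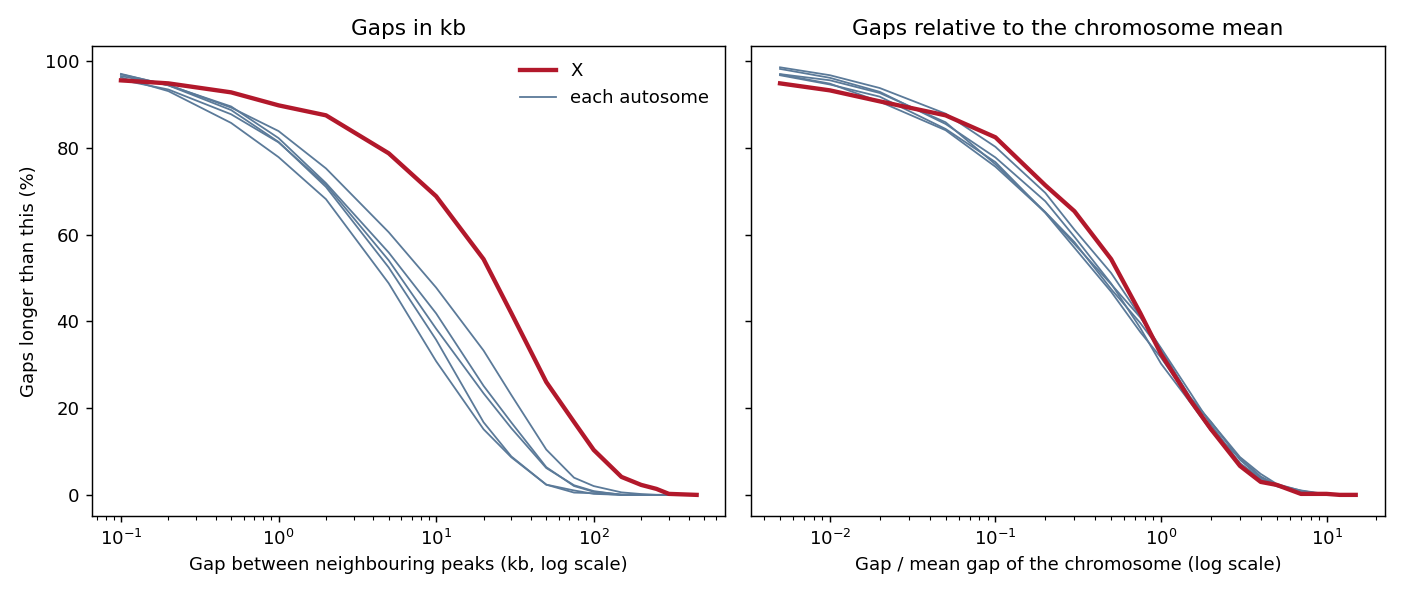
Share of gaps between neighbouring peaks that are longer than a given length (vertical axis, %), with the gap in kb on the left and as a multiple of the chromosome's mean gap on the right (both log axes), X in red and each autosome in blue. In kb the X curve lies to the right, and relative to the mean gap it runs beside the autosomes.

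The 435 peaks formed 344 single peaks, 29 pairs and 8 runs of 3 or more peaks joined by gaps of at most 2 kb. The runs held 33 peaks, 7.59% of X peaks, against 18.1% of peaks on chromosome V and 28.0% on chromosome III. No run on X had more than 5 peaks, while the longest runs had 7 peaks on chromosome I and 22 on chromosome III. Runs rest on the same fixed gap of 2 kb, which joins fewer peaks where peaks are sparse, as on X. Of the 8 runs, 7 lay in the left end, 1 in the right end and none in the center. Most of them were held together by short gaps, and with peaks up to 500 bp apart counted as 1 region, X had 2 runs and 10.9% of its regions had a close neighbour. Accordingly, 28.1% of left-end peaks had a close neighbour (21.6 to 35.3%), against 16.4% in the right end (11.1 to 22.9%) and 15.2% in the center (8.58 to 24.2%). The intervals of the left and right ends overlap slightly. The 33 peaks in runs had a median width of 789 bp (541 to 1346 bp), against 467 bp for single peaks (448 to 483 bp). They come from only 8 places, so this interval understates the uncertainty. Not all runs held wide peaks: at 4144968 to 4147961 and 4995451 to 4998064 none exceeded 629 bp. On the autosomes the medians were 579 bp in runs and 536 bp for single peaks. Scores of run peaks on X did not stand out, with a median of 189.59 (156.68 to 249.93) against 164.8 for single peaks (134.99 to 193.28).

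The run with the most covered bases was made of wide, weak peaks. It had 5 peaks over 13964 bp (4042332 to 4056295), of which 83.4% was covered, and scores between 63 and 193.31. Its members were 1346, 2411, 3379, 2472 and 2033 bp wide, from left to right, with scores of 63, 193.31, 124.85, 179.86 and 107.15. All 5 scored below the median of the list, 229.53. Peaks of 2 kb or more with a score under that median were rare, 0.241% of the list, and X held 6 of the 15, 4 of them in this run. The other X peaks of this kind were at 1642416 to 1644770 and 16758313 to 16760827.

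Another 4 peaks stood just left of that run, so that 9 peaks lay between 4025956 and 4056295. The first of them, 3308 bp wide with a score of 1355.98, followed a stretch of 254177 bp without a peak. After the last of them, 88672 bp were again free. The cluster was thus bounded on both sides by empty sequence, and after its first peak no score in it exceeded 332.16, that of the second peak.

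The second run, in the right end, was strong and nearly continuous. It spanned 10599 bp (16929362 to 16939960), of which 97.8% was covered by 5 peaks. It opened with the 4726-bp ceiling peak, which peaks of 1093, 729, 3140 and 683 bp followed, with scores of 363, 581.4, 1089.21 and 161.01. Gaps within it were from 9 to 92 bp, so the list divides here what is almost a single covered stretch. A run at 5045388 to 5053029 had the same form, with 5 peaks covering 91.7% of 7642 bp and scores from 92.63 to 486.68. The fourth run of 5 peaks, at 1883248 to 1888829, covered 79.6% of 5582 bp with scores from 60.87 to 247.

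**Figure D5:**
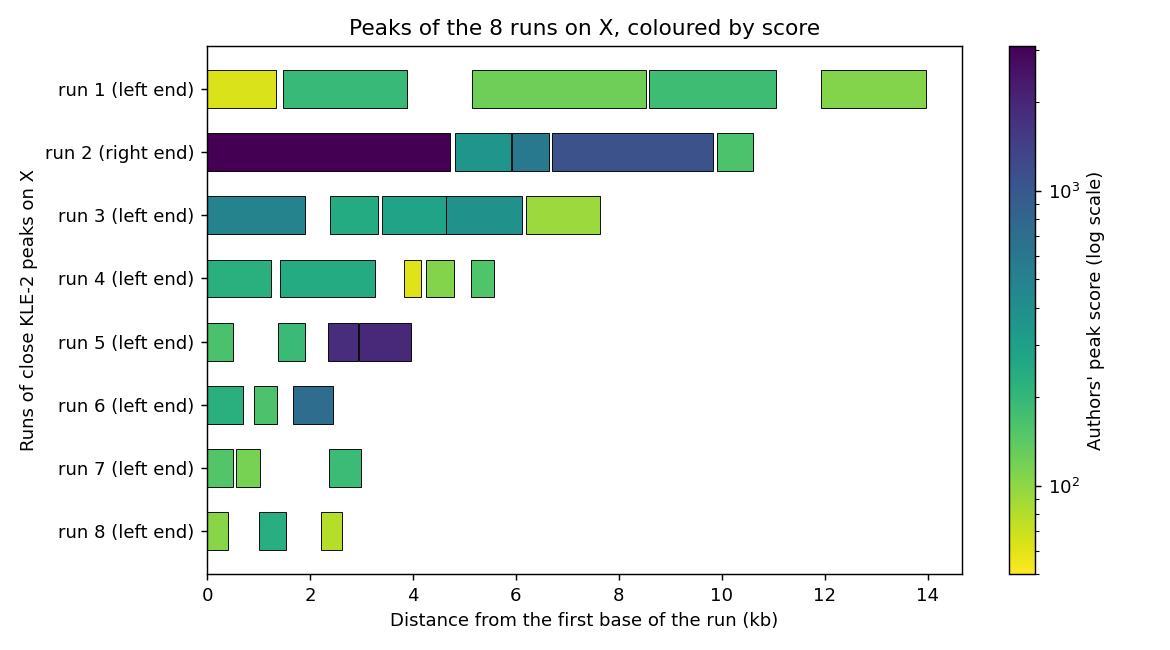
The 8 runs of close KLE-2 peaks on X, one per row, ordered by number of peaks and covered bases, with each peak drawn to scale by its distance in kb from the first base of the run (horizontal axis) and coloured by score (log scale). Run 1 holds wide peaks with scores of at most 193.31, and run 2 opens with a 4726-bp peak at 3100.

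Long stretches without a peak took up much of X. There were 45 of at least 100 kb, 7063.91 kb in all or 39.9% of the span, against 46 on the 5 autosomes together. Chromosome V, with the most of any autosome, had 21 that made up 13.8% of its span. Of the stretches of at least 200 kb, 10 were on X and 2 on the autosomes, and all 6 of at least 250 kb were on X. A fixed length counts more stretches where peaks are sparse. Relative to the mean gap of each chromosome, X had no excess of long gaps. Gaps over 3 times the mean were 6.68% of gaps on X and from 7.26% to 8.71% on the autosomes. The longest stretch on X was 11.1 times the mean, against 9.14 to 14.4 times on the autosomes.

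The longest stretch, 445170 bp at 6296850 to 6742019, lay in the center next to another of 203806 bp (6092422 to 6296227). A single peak of 622 bp with a score of 1009.86 (6296228 to 6296849) separated them. To the right, 4 peaks with scores of 54.7 to 178.64 came before the next stretch, of 227052 bp (6841237 to 7068288). Between 6 and 8.5 Mb X held 28 peaks, 11.2 per Mb, and no ceiling peak. The other long stretches were 272743 bp at 2536836 to 2809578, 259501 bp at 10771420 to 11030920, 259023 bp at 4712335 to 4971357 and 254177 bp at 3771779 to 4025955. They were followed by 250094 bp at 8036629 to 8286722, 210546 bp at 5475558 to 5686103 and 201391 bp at 12670795 to 12872185.

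Such stretches were not confined to the center. The left end had 13, which made up 35.1% of its length, the right end 12 with 26.7%, and the center 20 with 57.9%. Of the 10 of at least 200 kb, 4 were in the left end, 1 in the right end and 5 in the center. The left end therefore joined the fullest tip, 7 of the 8 runs and 4 of the 10 longest empty stretches. The right end held 1 run and 1 of those stretches. With peaks up to 500 bp apart counted as 1 region, X had 2 runs. Genes, repeats and the mappability of these stretches were not analysed here, and whether peaks too weak for the authors' list lie in them was not tested.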

How the data were processed

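Per the labels, frozen adults were ground, formaldehyde (1%) was applied for 10 minutes, and sonicated chromatin was precipitated with 5 µg of antibody. The submitters' processing notes name BWA and the build ce10. Peaks were called with MACS on WS220, per the file headers and columns. For the MACS version and threshold, the use of the input and any pooling, the sources used here give nothing. The authors deposited 1 score per peak, used here only to describe, rank and filter peaks. First and last bases were used as deposited.

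Peaks were assigned by midpoint. A run is at least 3 peaks with gaps of at most 2 kb. The ceiling is the highest score that at least 50 peaks share, or above. Named are the 20 highest X scores, the first and last peak, the 5 widest peaks, the 2 fullest runs, the 10 longest empty stretches and the 5 fullest and emptiest bins of 500 kb; other peaks named were chosen after their values were seen. The members and lists were chosen with earlier results of these data known. With 1 peak list, no test was made. The functions were tested on simulated lists. Software was pandas 2.3.3, numpy 2.4.6, scipy 1.17.1 and, for plots, matplotlib 3.10.9 under Python 3.11.15. Peak sequences and genes were not analysed, since no WS220 genome or annotation was used here.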

Additional observations from a re-analysis of the deposited data

How the results depend on the processing

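Of 56 alternatives, 34 left a value within its interval (counts within 1.5 times), 18 moved it and 4 changed its sign or side; those on width classes and tips were chosen after seeing the data. With scores above the list median, density was 9.65 peaks per Mb, the left share of end peaks 49.6% and left minus right median score 117.81 (-15.9 over all X peaks). Close neighbours were then 14.0%, runs 2 and the ceiling share 12.9%. The median score was 561.99 (167.79 over all X peaks) and the median width 614 bp (481 bp over all X peaks). This filter removes peaks by score, so its lower density and its score, width and ceiling values follow from it. After merging within 500 bp, 10.9% had a close neighbour, the runs numbered 2 and the ratio of wide-peak density was 0.589. With ends of 25% the central share was 35.2% (21.1% over the middle 33.3%), and with ends of 2 Mb it was 65.5%, both because the center is longer; ends of 2 Mb also gave a left share of 60.0% and a score difference of 11.93. Without the outermost 500 kb the left share was 48.3%. A neighbour distance of 1 kb gave 17.0%, and 5 kb gave 34.7% and 17 runs; runs of at least 4 peaks numbered 5. Stretches of at least 50 kb numbered 113, and of at least 200 kb 10. A change of neighbour distance, run minimum or stretch length changes what is counted, so those shifts follow from the definitions. For other values without a stated reason, the cause was not tested. The left excess over the whole ends therefore has no stable sign, and the difference in median score has none either. No chromosome length stood in the file headers, so that alternative was not run. No paired analysis was possible because only the ChIP library has values here and no test was made; leaving out a replicate was not possible either. Read depth is unknown, so weak peaks may be missing from the list.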
